A study of Mus musculus with 40 samples.

Results

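The enrichment of each messenger RNA on astrocyte ribosomes was compared between sham-operated mice on a high-fat diet (HFD) and sham-operated mice on chow. Enrichment was taken within each sample number, as log2 CPM (counts scaled to the size of the library) in the immunoprecipitate, or pull-down, minus log2 CPM in the supernatant of the same number. A value of 0 means equal abundance in both fractions, and a value of 1 means a doubled abundance in the pull-down. The comparison held 13 of the 20 sample numbers in the series, 6 on HFD (numbers 1, 9, 13, 16, 18 and 20) and 7 on chow (numbers 7, 8, 12, 15, 19, 21 and 23), with 26 of the 40 libraries.

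All mice, chow animals included, carried the Aldh1l1 eGFP-L10a transgene, and their hypothalami were microdissected after 4 weeks of HFD or chow with a sham operation. The remaining numbers of the series, from orchiectomized mice on HFD, entered no result below except where stated. In TRAP (translating ribosome affinity purification), a ribosomal protein fused to a fluorescent protein is made in 1 cell type and the tagged ribosomes are pulled down with the RNA they carry. Here the tag followed the Aldh1l1 gene, which is active in astrocytes, so the tagged population was defined by that promoter. The supernatant is the other fraction of the same number, in which RNA of neurons, oligodendrocytes and microglia remains. The labels used here give neither the ages of the mice nor whether a number is 1 mouse, so p-values measure the spread between sample numbers.

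Astrocytes clear glutamate and potassium from the synaptic space, pass fuel to neurons and handle brain lipid and cholesterol. In the hypothalamus they border neurons that control feeding, and they are known to become reactive during high-fat feeding. A change in enrichment differs from a change in level. It requires the pull-down to move relative to the supernatant, and a gene that moves equally in both fractions has a difference of 0. In such bulk samples, fewer cells of a type and less RNA per cell cannot be told apart.

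Library totals ran from 10227859 to 20792147 estimated counts in the 13 pull-downs and from 8739269 to 10975785 in the 13 supernatants. No measure of the libraries passed a test between the diets. For the pull-down minus supernatant differences of total count, genes detected, mitochondrial percent and Gm42418 percent, and for the spread of the enrichment over genes, 2-sided exact permutation p-values over 6 against 7 numbers ran from 0.322 to 0.772, with an adjusted p of 0.772 for each of the 5 measures. Gm42418, a ribosomal-repeat RNA, took from 1.07% to 18.2% of pull-down counts, with its highest shares in HFD 1 (18.2%) and chow 8 (13.3%). These 2 numbers stood apart in the results below. Some results are also given without them, and results with no such value may have moved as well.

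The pull-down was rich in astrocyte markers in both diets, but not in these alone. Each of the 24 astrocyte markers tested was called higher in the pull-down on chow and on HFD (edgeR, adjusted p under 0.05), against a background of 38.1% of the 15119 genes tested on chow and 37.8% on HFD. Each of 22 neuron markers, 17 microglia markers and 13 mitochondrially encoded genes was called lower in both diets, against 38.7% of genes on chow and 38.6% on HFD. Endothelial markers were also higher in the pull-down: 14 of 14 were called on chow and 13 of 14 on HFD. So were choroid plexus markers, 4 of 5 on chow and 5 of 5 on HFD. Of 11 mural markers, 5 were called higher and 2 lower on chow, and 7 higher and 1 lower on HFD. Of 16 tanycyte and ependymal markers, 8 were called higher and 7 lower in each diet.

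The median enrichment of the astrocyte markers was lowest at 3.22 in chow 8, had its middle value at 5.35 and reached 5.71 among the 7 chow numbers. It was lowest at 2.78 in HFD 1, had a median of 4.85 and reached 5.41 among the 6 HFD numbers. The diets overlapped over most of this range, and the lowest number of each diet lay below the others.

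**Figure D1:**
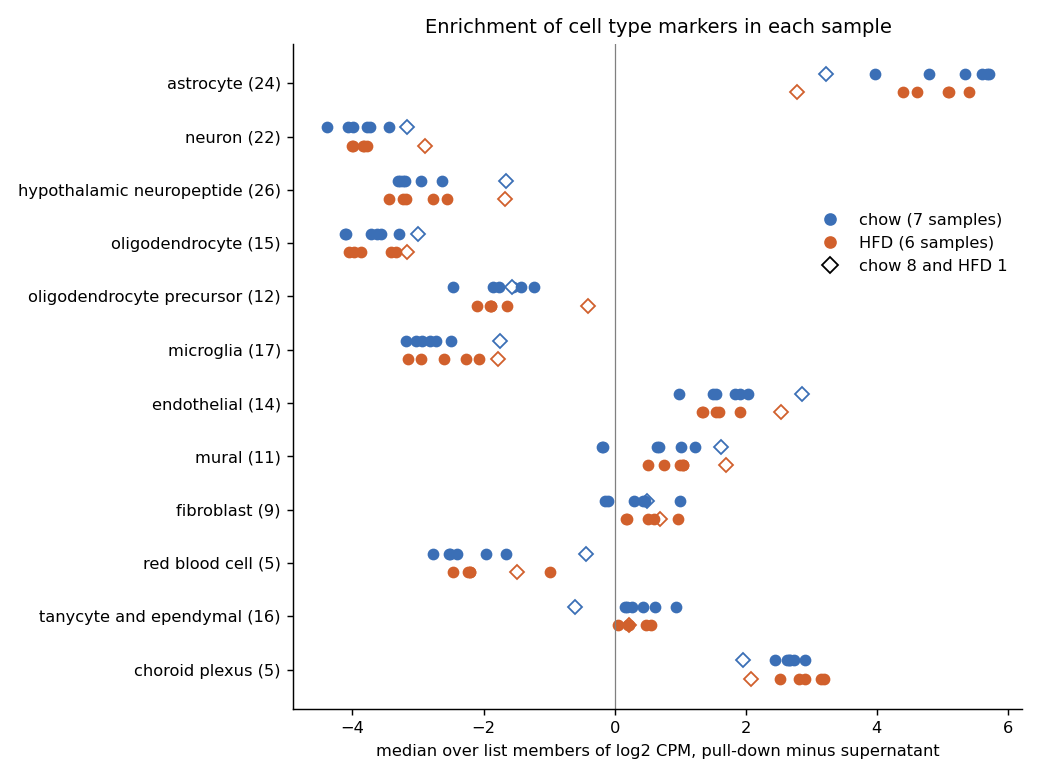
Each point is 1 sample number, placed by the median over a marker list of log2 CPM in the pull-down minus log2 CPM in the supernatant. Rows are cell type lists with the number of genes tested, and open diamonds are chow 8 and HFD 1. Astrocyte medians lie between 2.78 and 5.71, neuron medians between -4.39 and -2.90, and the diets overlap in every list shown.

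In chow 8 and HFD 1 the distance between cell types was smaller. The astrocyte median exceeded the neuron median by 5.68 in HFD 1 and by 6.38 in chow 8, against 7.42 in chow 23 and 8.38 to 10.1 in the other 10 numbers. The neuron median was -2.90 in HFD 1 and -3.16 in chow 8, nearer to 0 than in any other number. Their endothelial medians, 2.53 and 2.85, were the highest of the 13. Summed over the 24 markers, astrocyte RNA made up 84680 and 87185 CPM of the pull-downs of HFD 1 and chow 8, and 89937 to 119948 CPM in the others. The supernatants differed more, with 11797 CPM in HFD 1 and 10241 CPM in chow 8 against 3419 to 8277 CPM elsewhere. The part of the supernatant in the low enrichment of these numbers was not tested.

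Across genes, enrichment on the 2 diets lay close to the line of equality. The Pearson correlation of the mean enrichments over the 15119 genes was 0.983, a description in which genes are not independent replicates. On chow 5763 genes were called higher and 5851 lower in the pull-down, and on HFD 5722 and 5834. Of these, 5256 were called higher in both diets (91.2% of the chow calls and 91.9% of the HFD calls) and 5436 lower in both (92.9% and 93.2%). The number called in opposite directions was 0. Between pairs of sample numbers, the correlation of enrichment over genes ran from 0.80 to 0.94 within a diet (median 0.90, 36 pairs) and from 0.76 to 0.95 between diets (median 0.91, 42 pairs).

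No gene passed the test for a diet difference in enrichment. By the edgeR quasi-likelihood test with the sample number as a block, 0 of 15119 genes (0%) were called, and the smallest adjusted p was 0.949. At an unadjusted p under 0.05 there were 354 genes (2.34%), 185 higher on HFD (1.22%) and 169 lower (1.12%). DESeq2 called 0 genes with 377 at an unadjusted p under 0.05, and limma on the per-sample differences called 0 with 405. The unadjusted count moved with single numbers: it was 976 without HFD 18, 785 without chow 19, 227 without chow 12 and 223 without HFD 20, each with 0 genes called.

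**Figure D2:**
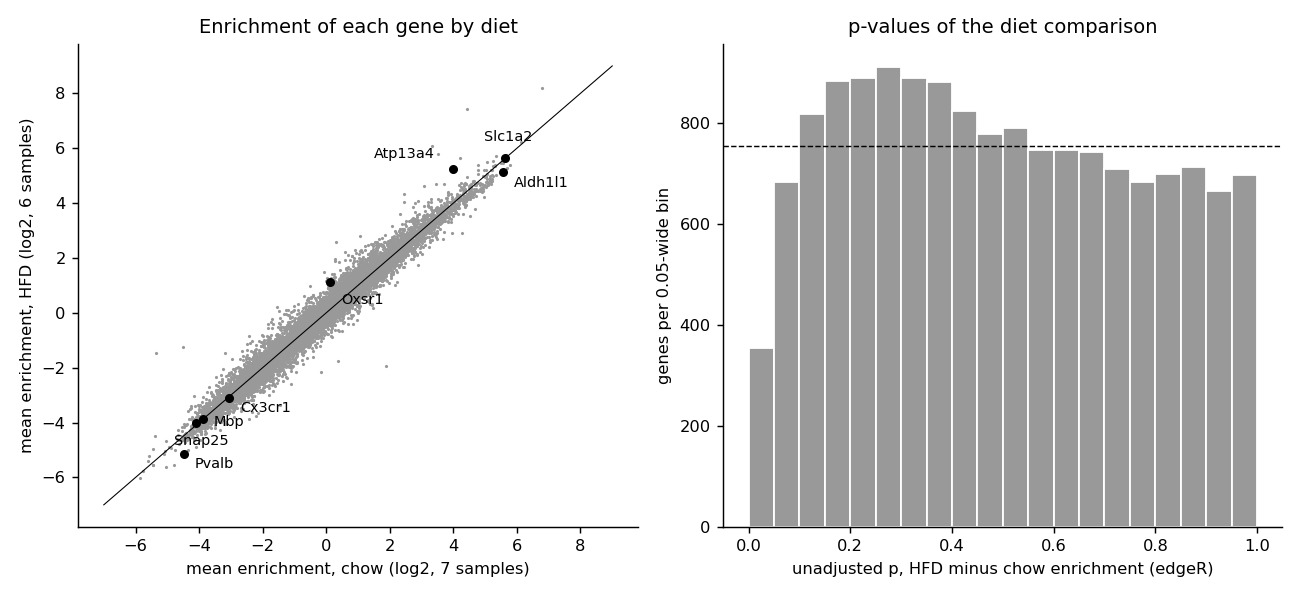
Left, the mean enrichment (log2) of each gene over the 7 chow numbers (x) against that over the 6 HFD numbers (y), with the line of equality and 8 genes marked. Right, the number of genes per bin of the unadjusted edgeR p for the diet difference, with a dashed line at the level of a uniform spread. Genes lie along the line of equality (r = 0.983), and the lowest bin holds 354 genes, below the dashed line.

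How small a difference the data could have held depends on the gene. The median standard error (SE) of the difference was 0.24 on the log2 scale, and 0.20 for the 10869 genes with a mean of at least 5 CPM. The 95% interval lay within 1 log2 unit of 0 for 10596 of 15116 genes with an interval (70.1%) and within 0.5 for 3314 (21.9%). Among cell types, the interval lay within 1 unit for 22 of 22 neuron markers but for 9 of 24 astrocyte markers. The differences themselves ran from -0.49 at the 5th percentile to 0.60 at the 95th, with a median of -0.02. Over the genes with a mean of at least 5 CPM only, the median SD of enrichment between numbers of 1 diet was 0.35 on chow and 0.36 on HFD. The median absolute difference between the diets over the same genes was 0.16.

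The genes nearest to a call and higher on HFD were led by Oxsr1 (chromosome 9, 119238432 to 119322427, GRCm38), a kinase that phosphorylates cation-chloride cotransporters. Its enrichment on chow was -0.46 at the lowest, 0.15 at the median and 0.71 at the highest, and on HFD 0.46, 1.10 and 1.58. The ranges overlapped between one HFD number, HFD 18, and the top of the chow range. The difference was 1.01 ± 0.24 (SE; 95% interval 0.51 to 1.51; edgeR adjusted p = 0.949). Mean pull-down abundance was 10.8 ± 3.04 CPM (SD, n = 7) on chow and 15.0 ± 2.47 CPM (SD, n = 6) on HFD, and supernatant abundance was 10.2 ± 4.11 and 6.93 ± 1.97 CPM. Both fractions thus lay in opposite directions for this gene.

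Cbwd1 (chromosome 19, 24919916 to 24961610), which codes for a zinc chaperone, was the one gene of the 10 nearest a call on the higher side whose 2 diets did not overlap. Its enrichment ran from 0.26 to 0.86 with a median of 0.60 on chow, and from 0.97 to 1.91 with a median of 1.27 on HFD. The difference was 0.81 ± 0.22 (SE; edgeR adjusted p = 0.949). Over all genes tested, 4 (0.0265%) had diets that did not overlap, 2 with HFD above chow (0.0132%) and 2 with HFD below (0.0132%). The other 3, found by that search after the values were seen, were Ppp6r2, a phosphatase subunit, at a difference of 0.49 ± 0.17, Arhgap33, a sorting nexin with a GTPase-activating domain, at -1.08 ± 0.30, and 4930519F16Rik at -1.94 ± 0.83. The last averaged 0.49 CPM over the 26 libraries.

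Atp13a4 (chromosome 16, 29395853 to 29544864), a P-type cation ATPase, had the largest difference among these 20 genes. Its enrichment on chow was 2.71 at the lowest, 4.02 at the median and 5.47 at the highest, and on HFD 4.45, 5.25 and 6.11. The pull-downs held 21.6 ± 5.12 CPM on chow and 25.2 ± 3.70 CPM on HFD, and the supernatants 1.33 ± 0.81 and 0.55 ± 0.37 CPM. The difference was 1.44 ± 0.47 (SE; edgeR adjusted p = 0.949). Chow 8 had the lowest enrichment of this gene, and without chow 8 and HFD 1 the difference was 1.32.

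A further 6 genes near to a call on the higher side had differences between 0.53 and 0.90. They were Lmln, a metallopeptidase (0.64), Sytl2, a Rab27 effector in vesicle transport (0.75), Ptprj, a receptor tyrosine phosphatase (0.88), Gfm2, which recycles mitochondrial ribosomes (0.53), Slc9a9, an endosomal sodium-proton exchanger (0.67), and Ttll3, a tubulin-modifying enzyme (0.90). Each overlapped between the diets in at least 1 number. Sytl2 was called lower in the pull-down in both diets, so its higher value on HFD is a smaller depletion: its median was -3.12 on chow and -2.44 on HFD. For Sytl2 the difference was 0.34 in the second deposited table. Exons of Ttll3 overlap Arpc4 on the same strand, so its counts are uncertain, and those of Gfm2 also share bases with another annotated gene.

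On the lower side Rpusd1 (chromosome 17, 25727670 to 25731464), a pseudouridine synthase family member, had the smallest p among genes with a regular symbol and a mean of at least 5 CPM. Its enrichment was -1.62 at the lowest, -1.03 at the median and -0.68 at the highest on chow, and -2.24, -1.75 and -1.44 on HFD. The difference was -0.66 ± 0.19 (SE; 95% interval -1.06 to -0.27; edgeR adjusted p = 0.949). Pull-down abundance was 8.80 ± 0.52 CPM on chow and 6.83 ± 0.77 CPM on HFD.

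Pvalb (chromosome 15, 78191114 to 78206400), the calcium buffer parvalbumin of fast-firing neurons, lay at -4.87, -4.41 and -4.05 on chow (lowest, median, highest) and at -5.82, -5.11 and -4.57 on HFD. The difference was -0.67 ± 0.20 (SE; edgeR adjusted p = 0.949). Supernatant means were 73.5 ± 16.1 CPM on chow and 89.5 ± 19.1 CPM on HFD, and pull-down means 3.12 ± 0.64 and 2.48 ± 1.11 CPM. The neuron marker list as a whole had a median difference of 0.06, on the other side of 0 from Pvalb. That side was not stable, as the list median was -0.10 without HFD 1 and -0.02 without chow 8 and HFD 1.

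The remaining 8 genes on the lower side had differences between -1.0 and -0.51. Uncx, a homeobox factor of neurons, had -1.0, which ran from -1.14 to -0.61 across the alternatives, with pull-down means of 0.95 CPM on chow and 0.53 CPM on HFD. Gpr62, an orphan receptor known from oligodendrocytes, had -0.79. Nipal2, a member of a magnesium transporter family, had -0.64, Rbm12, an RNA-binding protein, -0.64, and Acp6, a lysophosphatidic acid phosphatase, -0.62. Noc4l of ribosome assembly had -0.59, Maged2 -0.52 and Bloc1s4, a subunit of a complex for lysosome-related organelles, -0.51. Reads of Rbm12, Gpr62, Nipal2 and Bloc1s4 are uncertain because their exons share bases with another annotated gene. Of the 20 genes nearest to a call, 20 had a pull-down and a supernatant shift of opposite sign, against 58.6% of all genes with at least 5 CPM, a property that choosing by the difference favours. The supernatant shift was the larger in 9 of the 20. The direction of the difference held for these 20 in every alternative in which they were tested.

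**Figure D3:**
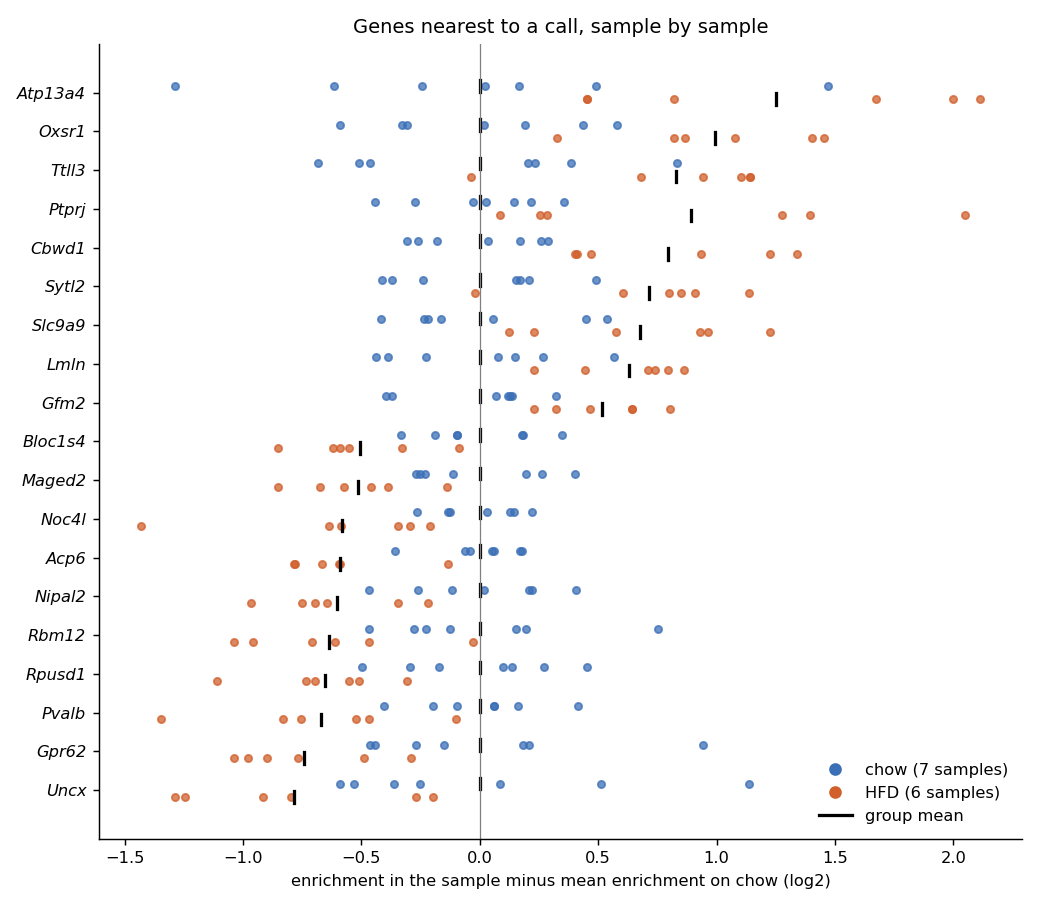
Genes with the smallest p in each direction, higher or lower on HFD, as named in the text. Each point is the enrichment in 1 sample number minus the mean enrichment on chow (log2), coloured by diet, with a black bar at each group's mean. Cbwd1 alone has no overlap between the diets, and each other gene shown overlaps in at least 1 number.

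None of the genes that define astrocytes passed the test for a diet difference. Aldh1l1 (chromosome 6, 90486427 to 90600203), a folate enzyme whose promoter carries the tag, had an enrichment of 4.00, 6.05 and 6.40 on chow (lowest, median, highest) and 3.21, 5.24 and 6.38 on HFD. Its difference was -0.41 ± 0.54 (SE; 95% interval -1.57 to 0.74; edgeR adjusted p = 0.951), and -0.21 without chow 8 and HFD 1. Across all alternatives it ran from -0.68 to 0.03, the latter without HFD 1. Its pull-down held 155 ± 19.7 CPM on chow and 158 ± 14.2 CPM on HFD, while the supernatant held 4.00 ± 3.36 and 5.61 ± 5.17 CPM.

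Gfap, the intermediate filament used as a sign of reactive astrocytes, ran at 4.17, 5.45 and 5.79 on chow and at 3.88, 4.71 and 5.38 on HFD. Its difference of -0.50 ± 0.28 (SE; 95% interval -1.09 to 0.10; edgeR adjusted p = 0.949) was the most negative of the astrocyte markers. The pull-down held 562 ± 116 CPM on chow and 509 ± 62.9 CPM on HFD, a lower mean on HFD within 1 SD of chow. The supernatant held 16.2 ± 6.86 CPM on chow and 20.7 ± 8.63 CPM on HFD. The larger shift was that of the supernatant, 0.37 log2 CPM against -0.12 in the pull-down. The 2 diets overlapped.

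The glutamate transporter Slc1a2 had a difference of 0.03 ± 0.35 (SE), the water channel Aqp4 -0.02 ± 0.49, glutamine synthetase (Glul) 0.00 ± 0.23 and the gap junction protein Gja1 -0.18 ± 0.44. Each took both signs across the alternatives. Of the 24 astrocyte markers, 4 were higher and 20 lower on HFD, 0 were called and 0 had an unadjusted p under 0.05. Their median difference was -0.19, against -0.02 over all genes tested. The median pull-down shift was 0.02 and the median supernatant shift 0.26 log2 CPM, so the larger of both shifts was that of the supernatant. A single number decided the sign: the median was 0.10 without HFD 1, -0.38 without chow 8 and -0.11 without both.

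Nuclear-encoded subunits of oxidative phosphorylation, which build the respiratory chain and ATP synthase, had the most one-sided list of those with at least 5 genes tested. Of 42 members, 2 were higher and 40 lower on HFD, against 7099 higher and 8020 lower over all genes. The median difference was -0.20, with members between -0.33 and 0.13, and 0 were called or had an unadjusted p under 0.05. Members were measured in the same libraries and are not replicates, so the count carries no test. Atp5g1, a subunit of the ATP synthase ring, had -0.33 ± 0.17 (SE; edgeR adjusted p = 0.949) and Cox5a of cytochrome c oxidase -0.29 ± 0.16.

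The list median in single numbers ran from 0.02 to 0.88 on chow and from -0.25 to 0.43 on HFD, and the diets overlapped. Chow 12 held the high value of 0.88. Without chow 12, 37 of 42 members were lower on HFD with a median of -0.12, and without chow 8 and HFD 1, 40 of 42 with a median of -0.12. The median pull-down shift was -0.06 and the supernatant shift 0.16 log2 CPM. The 13 mitochondrially encoded genes, whose products join the same complexes, had 8 higher and 5 lower members with a median of 0.01.

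**Figure D4:**
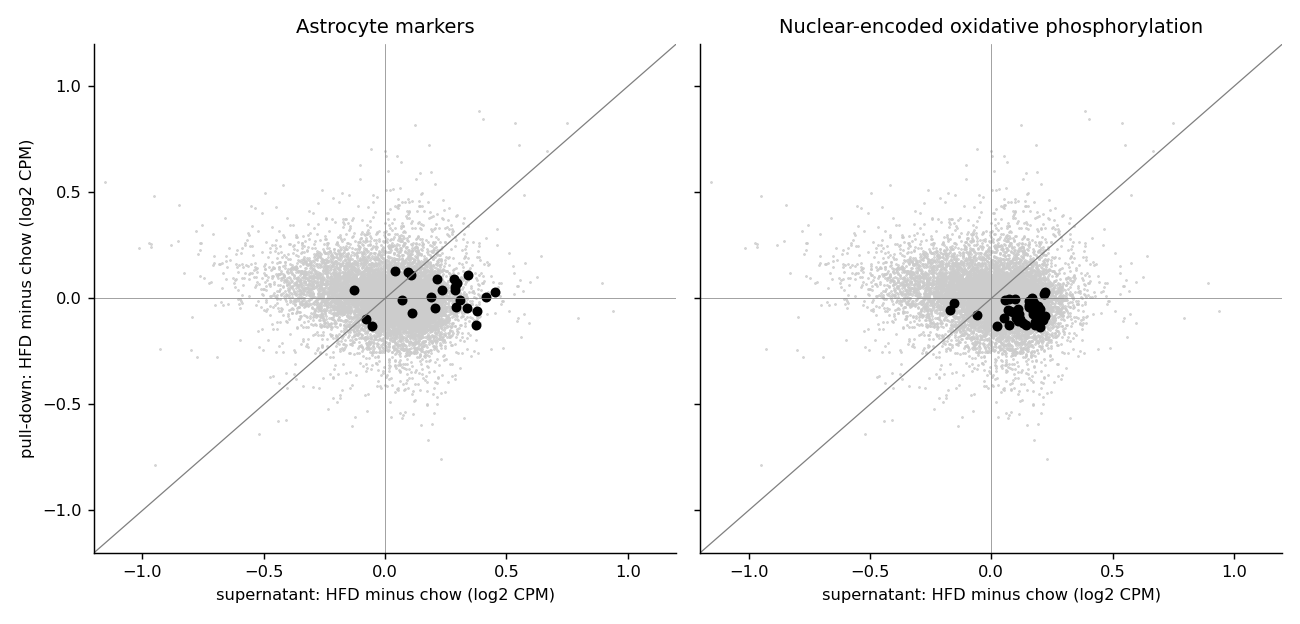
Difference between HFD and chow in the supernatant (x) and in the pull-down (y), in log2 CPM, for astrocyte markers (left) and nuclear-encoded oxidative phosphorylation genes (right), with genes of at least 5 CPM in grey. Points below the diagonal have a lower enrichment on HFD. Both lists spread to the right of 0, with median supernatant shifts of 0.26 and 0.16, and stay near 0 in the pull-down, at 0.02 and -0.06.

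Glycolysis and glycogen genes, which supply the lactate and ATP that astrocytes make from glucose, lay on the same side. Of 27 members, 3 were higher and 24 lower on HFD, with a median of -0.16, a pull-down shift of -0.02 and a supernatant shift of 0.15. The glycolytic enzymes Pkm (-0.29 ± 0.18, SE, and -0.19 without chow 8 and HFD 1) and Pfkp (-0.23 ± 0.17) had the smallest p among them, both with an edgeR adjusted p of 0.949. Without chow 8 and HFD 1, 23 of 27 were lower with a median of -0.09. The glucose transporter Slc2a1, found in astrocytes and endothelium, had -0.18 ± 0.18, and -0.09 without chow 8 and HFD 1. Counts of Pkm, Pfkp and Slc2a1 are uncertain because their exons share bases with another annotated gene, for Pkm on the same strand.

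Lipid genes were of interest because the diets differ in fat. Of 24 cholesterol synthesis genes, 7 were higher and 17 lower on HFD, with a median of -0.13, and 1 had an unadjusted p under 0.05. The median was -0.08 without chow 8 and HFD 1, and ran from -0.18 to -0.06 with 1 number left out at a time. That gene, Fdft1 (squalene synthase), had -0.35, -0.21 and 0.16 on chow (lowest, median, highest) and -1.02, -0.46 and -0.13 on HFD. The difference was -0.35 ± 0.15 (SE; 95% interval -0.67 to -0.02; edgeR adjusted p = 0.949), and -0.22 without chow 8 and HFD 1. Exons of Fdft1 overlap Ctsb on the opposite strand. Ebp, a sterol isomerase of the pathway, had -0.28 ± 0.17.

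For fatty acid oxidation and ketone bodies, 8 of 25 members were higher and 17 lower, with a median of -0.05, which was 0.03 without HFD 1. Cpt1a, which controls fatty acid entry into mitochondria, had 0.03 ± 0.28, with pull-down means of 102 ± 6.98 CPM on chow and 102 ± 3.76 CPM on HFD. Ppara, the nuclear receptor that drives this pathway, had 3.65, 4.75 and 5.95 on chow and 4.74, 5.41 and 6.08 on HFD, a difference of 0.72 ± 0.39 (SE; 95% interval -0.10 to 1.54; edgeR adjusted p = 0.949) that ran from 0.27 to 0.93 across the alternatives. Its supernatant means were 1.70 ± 1.07 and 1.16 ± 0.40 CPM.

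Among fatty acid synthesis genes, 4 of 16 were higher and 12 lower, with a median of -0.10. The median was -0.02 without chow 8 and HFD 1, and 0.02 without HFD 1 alone. The elongase Elovl5 had -0.42 ± 0.26, and -0.26 without both numbers. In the list for lipid transport and storage, 11 of 24 were higher and 13 lower, with a median of -0.06. Without chow 8 and HFD 1, where 25 members passed the filter, 14 were higher and 11 lower with a median of 0.02, the other direction. Hilpda, an inhibitor of lipolysis on lipid droplets, had -0.41 ± 0.19 (SE; edgeR adjusted p = 0.949), and the droplet coat protein Plin2 -0.47 ± 0.30, and Plin2 had -0.27 without chow 8 and HFD 1. Apoe, the main apolipoprotein of the brain, had -0.33 ± 0.44, and -0.18 without chow 8 and HFD 1, and took both signs across the alternatives.

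Lists on inflammation, which high-fat feeding is known to raise in hypothalamic glia, held no called gene. Of 20 NF-kB and cytokine genes, 7 were higher and 13 lower with a median of -0.10, which was -0.06 without HFD 1 or without HFD 13. Nfkb1 had 0.49 ± 0.26, and 0.27 without chow 8 and HFD 1, and the adaptor Myd88 -0.44 ± 0.28. Of 25 astrocyte reactivity genes, 13 were higher and 12 lower with a median of 0.03. Without chow 8 and HFD 1, 11 were higher and 14 lower with a median of -0.03. In this list Ggta1 had 0.68 ± 0.34 and S100a10 -0.36 ± 0.17. Of 19 interferon response genes, 11 were higher and 8 lower with a median of 0.07, which was 0.01 without chow 8 and HFD 1 and -0.02 without chow 15.

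The antiviral gene Rsad2 had 0.41, 0.90 and 1.05 on chow (lowest, median, highest) and 0.85, 1.24 and 2.17 on HFD, with overlap. Its difference was 0.62 ± 0.24 (SE; 95% interval 0.12 to 1.13; edgeR adjusted p = 0.949). The pull-down means were 7.27 ± 1.33 CPM on chow and 7.31 ± 1.57 CPM on HFD, and the supernatant means 4.20 ± 1.31 and 2.79 ± 1.27 CPM. Ifit2, another interferon-induced gene, had 1.08 ± 0.53, and 0.75 without chow 8 and HFD 1.

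Of 19 hypoxia genes, 6 were higher and 13 lower on HFD with a median of -0.10, which was -0.06 without HFD 16. This list is not separate from glycolysis and glycogen: both had the same median in HFD 1, HFD 13 and HFD 16. Over all lists, 32 genes are in more than 1. Vegfa (chromosome 17, 46016993 to 46032369), which codes for a growth factor of blood vessels, went against the list. Its enrichment was 0.98, 1.99 and 2.27 on chow (lowest, median, highest) and 2.04, 2.37 and 2.59 on HFD. The difference was 0.55 ± 0.20 (SE; 95% interval 0.12 to 0.97; edgeR adjusted p = 0.949) and ran from 0.41 to 0.66 across the alternatives. Supernatant means were 15.4 ± 3.77 CPM on chow and 11.6 ± 1.66 CPM on HFD, and pull-down means 53.5 ± 7.21 and 59.3 ± 4.25 CPM.

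Feeding peptides of the arcuate nucleus are made by neurons. Npy and Cartpt had their lower level in the pull-down in each of the 13 numbers. Npy, which promotes feeding, had a difference of -0.44 ± 0.33 (SE) and Cartpt -0.02 ± 0.43. Agrp, released by the same neurons as Npy, had -0.21 ± 0.63, and 0.22 without chow 8 and HFD 1. Pomc, the precursor of a satiety peptide, had an enrichment of -0.93, -0.58 and 0.69 on chow and -0.58, 0.22 and 0.38 on HFD, a difference of 0.29 ± 0.26 (SE; edgeR adjusted p = 0.949). Its pull-down abundance was 10.9, 13.7 and 25.1 CPM on chow (lowest, median, highest) and 18.8, 24.2 and 74.9 CPM on HFD. In the supernatant it was 14.9, 18.8 and 26.2 CPM on chow and 15.7, 24.0 and 57.7 CPM on HFD. HFD 1 held the highest value in both fractions, and the diets overlapped. Of 26 hypothalamic neuropeptides, 13 were higher and 13 lower on HFD.

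Other cell types gave the background against which astrocyte enrichment is read. The median difference was 0.06 for 22 neuron markers (14 higher, 8 lower), 0.02 for 15 oligodendrocyte markers (9 higher, 6 lower) and 0.01 for 14 endothelial markers (8 higher, 6 lower), and each of these medians took the other sign when HFD 1 was left out. The oligodendrocyte and endothelial medians also did so with scaling by library totals. It was 0.20 for 17 microglia markers, with 11 higher and 6 lower, and ran from 0.01 without chow 7 to 0.44 without chow 8. It was 0.15 for 11 mural markers, and ran from 0.08 without chow 7 to 0.45 without chow 23. C1qb, a complement subunit of microglia, had 0.38 ± 0.29, Cx3cr1, the microglial fractalkine receptor, -0.03 ± 0.37, Snap25 of neuronal synapses 0.07 ± 0.32 and Mbp of myelin 0.02 ± 0.21. In each of these lists 0 members had an unadjusted p under 0.05.

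**Figure D5:**
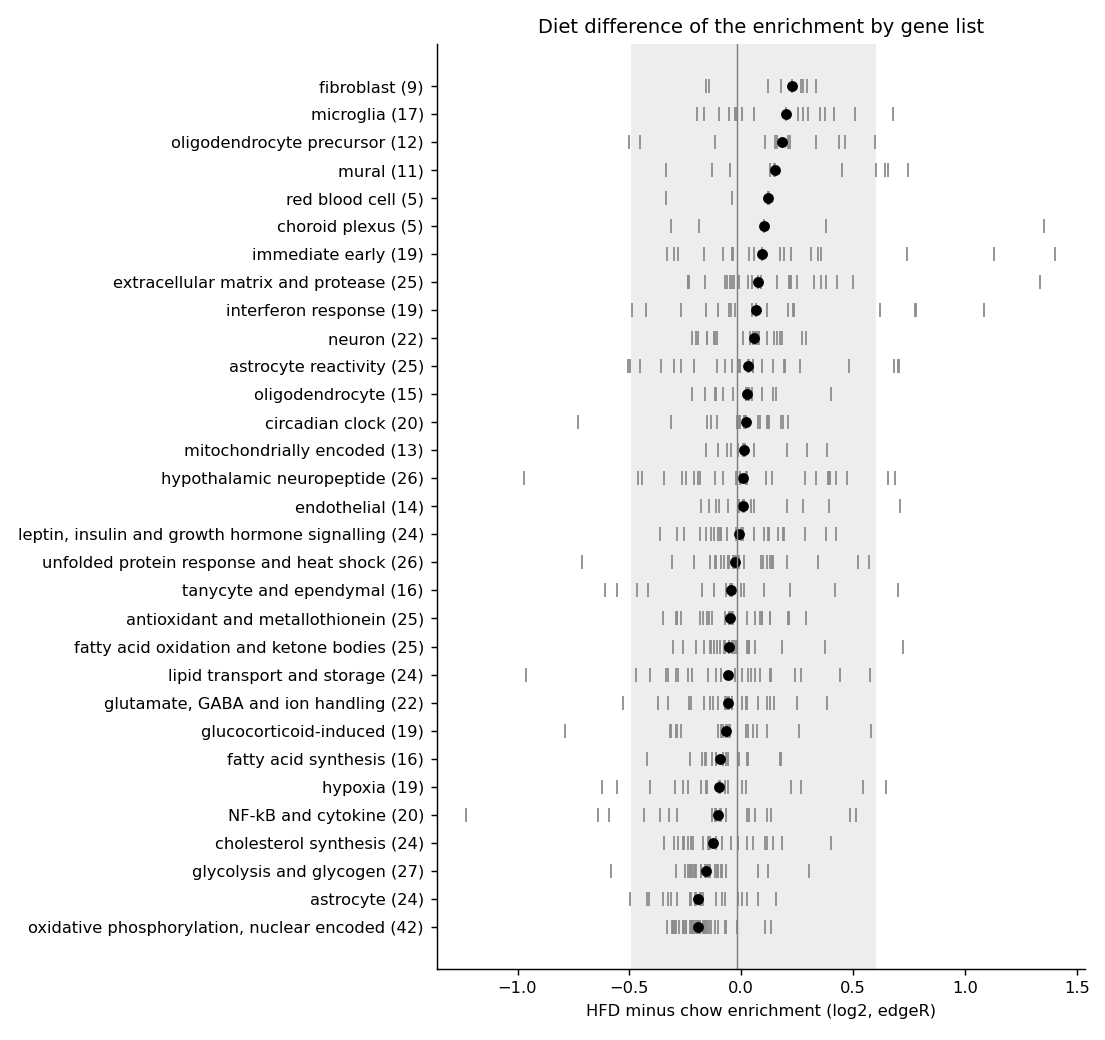
Difference in enrichment between HFD and chow (log2, edgeR) for each list with at least 5 genes tested, ordered by median. Grey ticks are genes, black dots list medians, the shaded band spans the 5th to 95th percentile of all genes (-0.49 to 0.60) and the grey line is their median. List medians lie between -0.20 and 0.23, inside the band.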

How the data were processed

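The deposited table of the authors held estimated counts per gene symbol (26792 symbols; 12.7% of non-zero values not whole). Per the submitters' processing notes, Trim Galore 0.6.4, Salmon 1.9.0 and GRCm38 were used. Per the labels' protocols, libraries were made from polyA RNA with a 3′ end kit; strandedness of the counting is not given in the sources used here. A second deposited table of the authors, named as TPM, holds a scaled signal, for most symbols the counts times 1 factor per library, and served as an alternative only (limma, log2 of value plus 0.2).

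Counts were rounded and filtered (filterByExpr, minimum count 10, 15119 genes kept), scaled by TMM and fitted with edgeR 4.0.16 (R 4.3.3), quasi-likelihood and robust, on the 26 libraries, with sample number as a block and the fraction effect within each diet. The diet comparison is the HFD minus chow difference of those effects, called at a Benjamini-Hochberg adjusted p under 0.05. Enrichments per number used log2 CPM with a prior count of 2. Alternatives used limma 3.58.1, DESeq2 1.42.0, other scalings, filters and samples. Scripts were tested on simulated data. No 2 libraries held identical values.

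Members and lists were chosen with earlier results of these data known. Named genes with a regular symbol and a mean of at least 5 CPM are the 10 smallest p-values in each direction, up to 3 per list (2 were taken, a number set after a first look) and the largest positive and negative enrichments. A further 20 set genes are named at any level. Genes with no overlap between the diets were named after their values were seen. Positions are from GENCODE M21, which held 98.1% of the symbols tested. Of 109 named genes, 40 share exon bases with another annotated gene, 13 of them on the same strand. Some genes that this rule picks are not reported here.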

Additional observations from a re-analysis of the deposited data

Results flagged for a closer look

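Of 292 sets of values from 1 diet, 28 had 1 sample number far from the others of its diet by Dixon's criterion at its 95% critical value, which chance alone flags in about 1 in 20 sets. Sets that share a sample number are not independent. HFD 1 gave 16 of the 28, chow 8 gave 3, HFD 16, HFD 18 and chow 12 gave 2 each, and HFD 20, chow 15 and chow 19 gave 1 each.

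HFD 1 had the lowest enrichment on HFD of Gja1 (3.66, others 4.91 to 5.63), Glul (2.66, others 3.35 to 3.65), Apoe (2.65, others 4.43 to 5.42), Mlc1, a membrane protein of astrocyte endfeet (2.77, others 4.52 to 5.46), and Noc4l (-2.07, others -1.28 to -0.848). Its list medians were also the lowest for glutamate, GABA and ion handling (2.59) and for fatty acid oxidation and ketone bodies (2.08). It had the highest values of Cartpt (-0.866) and Pmch (-3.14), which code for neuropeptides, of Rgs5 (2.95) and Abcc9 (3.62) of pericytes, and of mt-Nd5 (-3.38). The medians of the neuron list (-2.9), the oligodendrocyte precursor list (-0.401) and the mitochondrially encoded list (-3.74) were the highest there too. Its pull-down minus supernatant difference of Gm42418 was 17.6 percentage points, against 0.138 to 3.29 in the other HFD numbers.

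Chow 8 had the highest chow value of Agrp (0.613, others -2.26 to -1.14), of Cdh5, an endothelial cadherin (3.26, others 1.98 to 2.04), and of the neuropeptide list (-1.66, others -3.3 to -2.63). HFD 16 was high for Acp6 (0.537) and for the collagen gene Col1a1 (1.59). HFD 18 was low for 2 protocadherin genes, Pcdhga7 (2.12, others 8.09 to 8.87) and Pcdhgc3 (5.76, others 8.31 to 8.97). Both share their last exons with the rest of their cluster, so that counts may be split among them. The Pcdhga7 supernatant held 13.9 CPM in HFD 18, at most 0.10 CPM in the other HFD numbers, and 0 to 18.4 CPM on chow. That of Pcdhgc3 held 0.79 CPM in HFD 18 and 0 CPM in the other HFD numbers. With a supernatant at or near 0, the enrichment of a number rests on the prior count of 2. Chow 12 was high for Cpt1c, a neuronal relative of Cpt1a (0.488), and for nuclear-encoded oxidative phosphorylation (0.884, others 0.0182 to 0.35). HFD 20 was high for Ggta1 (4.45), chow 19 for Nfkb1 (1.51), and chow 15 was low for the interferon list (0.877, others 1.34 to 1.61).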

How the results depend on the processing

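The count of genes called for the diet effect was 0 in 27 of 28 alternatives, including 13 that each left out 1 sample number (0 to 0 called, 223 to 976 at an unadjusted p under 0.05), no block, other scalings, DESeq2, limma and the second table. Without a filter on low counts 1 of 26461 genes was called, Thtpa, which had counts in 4 libraries. With all 20 numbers, 0 were called and 326 had an unadjusted p under 0.05. Without chow 8 and HFD 1, 0 were called (233 unadjusted), and without chow 23 as well, 0 (244). Without mitochondrial genes and Gm42418, 0 were called (355 unadjusted).

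Enrichment was called for 11614 genes on chow and 11556 on HFD, and for 6954 and 6942 with at least 5 CPM in both fractions, where 9181 genes were tested. Leaving out 1 number gave 11112 to 11779 on chow and 11075 to 11577 on HFD. Without the block on sample number, 0 genes were called for the diet (415 unadjusted), 11714 on chow and 11643 on HFD. Deviations of the 2 fractions of 1 number correlated at -0.081 to 0.15, over 0.1 in 4 of 13 numbers. Each pull-down was also set against all supernatants of its diet, 7 on chow and 6 on HFD. In 6 of 13 numbers the best match was the own number: chow 7, 12, 15, 21 and 23 and HFD 20.

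Of 109 named genes, 26 took the other sign in some alternative, and 0 of the 20 nearest to a call did. Of 32 lists, 12 kept the direction of their median in every alternative run for lists and 20 did not. The second table, the set without 3 numbers, and for lists the settings that leave out numbers were chosen after seeing the data. For each diet's enrichment, so were all settings except no block, median-ratio scaling and scaling by library totals. The median SE was 0.24 over all genes and 0.20 over those of at least 5 CPM.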

Other observations

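Among the most enriched genes, Slc4a4, a sodium bicarbonate cotransporter of astrocytes, had a median enrichment of 6.49 on chow and 6.17 on HFD, with a difference of 0.07 ± 0.58 (SE). S1pr1, a sphingosine phosphate receptor, had 6.04 and 5.94, with a difference of 0.09 ± 0.39. At the other end, the mitochondrial gene mt-Cytb had -5.96 and -6.07 (difference -0.16 ± 0.21), Hpca, a neuronal calcium sensor, -5.56 and -5.62 (-0.12 ± 0.29), and Lrrc17 -5.53 and -5.29 (0.35 ± 0.25). Without chow 8 and HFD 1 the difference was -0.04 for Hpca and 0.19 for Lrrc17. Also among the most enriched genes, Pcdhga7 had a difference of 2.96 ± 1.57 and Pcdhgc3 2.81 ± 1.43 (edgeR adjusted p = 0.949 for each), the largest of the named genes. Both share exons with the other genes of their cluster, and their supernatant means were 8.54 and 1.12 CPM on chow and 2.35 and 0.13 CPM on HFD. Those HFD means came mostly from HFD 18, at 13.9 and 0.79 CPM, with at most 0.10 CPM in any other HFD number. Without chow 8 and HFD 1 the differences were 2.50 for Pcdhga7 and 1.91 for Pcdhgc3. More than 8-fold enrichment was seen for 586 genes on chow and 592 on HFD.

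Several further lists showed no called gene. Of these, the clock, leptin, glucocorticoid, antioxidant and unfolded protein lists had a median that took both signs across the alternatives. Immediate early genes had 12 of 19 members higher on HFD with a median of 0.09, and Fos among them 0.74 ± 0.47 (SE), with single values from -0.58 to 3.26 on chow and from 1.41 to 2.68 on HFD. Extracellular matrix and protease genes had 15 of 25 higher with a median of 0.07, and the protease Adamts1 0.50 ± 0.22. Clock genes had 12 of 20 higher with a median of 0.02. Leptin, insulin and growth hormone signalling had 11 of 24 higher with a median of -0.01, the leptin receptor Lepr 0.19 ± 0.44 and the cytokine receptor Lifr 0.42 ± 0.21. Glucocorticoid-induced genes had 7 of 19 higher with a median of -0.07, and the cell cycle inhibitor Cdkn1a 0.58 ± 0.23, which was -0.02 in the second deposited table. Antioxidant and metallothionein genes had 10 of 25 higher with a median of -0.05, and the unfolded protein response and heat shock list 11 of 26 with a median of -0.03.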
